A study of Mus musculus with 6 samples.

Results

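The clustered histone genes are the 40 genes of the table whose symbols begin with Hist1h, Hist2h, Hist3h or Hist4h, out of 19213 genes listed. They were chosen by symbol alone and grouped by the histone they encode, with 4 genes for H1, 9 for H2A, 11 for H2B, 7 for H3 and 9 for H4. Of the 40 genes, 35 reached 10 scaled reads in at least 3 of the 6 libraries and were tested among 15307 genes. The 5 genes not tested were Hist1h1t, Hist1h2af, Hist1h2ak, Hist2h2ab and Hist2h3c2. Every tested member reached 10 in at least 1 library of each group, though Hist1h3g did so in all 3 knockout libraries and, of the controls, in control 2 only. PolyA-selected RNA was sequenced from 3 samples of mouse melanoma cells in which Spp1, the gene of the secreted phosphoprotein osteopontin, had been knocked out with CRISPR-Cas9, and from 3 samples handled in parallel that carried a non-targeting control. All 6 samples carry the same batch label. The cell line label is B16F10, a mouse melanoma line, in control 1 only, it differs in every other sample up to B16F15 in knockout 3, and it is not given whether the cells differed. No clone, pool or culture is given, so the p-values measure only the spread between these samples, which may be technical.

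Clustered histone genes supply the bulk of the H1, H2A, H2B, H3 and H4 proteins that package newly copied DNA, and their expression peaks in S phase. Their messenger RNAs are unusual in that they are normally not polyadenylated. The 3′ end is cut just after a conserved stem-loop that is bound by the stem-loop binding protein SLBP, with the U7 small nuclear ribonucleoprotein guiding the cut. Some clustered genes can also give polyadenylated transcripts, for example in differentiated cells. PolyA selection therefore keeps the polyadenylated fraction of these transcripts by design, together with whatever unpolyadenylated RNA is carried over. In bulk RNA, more cells in S phase and more histone RNA per cell cannot be told apart.

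The stem-loop of the members is shown because it is the sequence on which their usual 3′ end depends. GENCODE M21 on mm10 annotates 39 of the 40 gene IDs (all but that of Hist1h2bh), with 28 on chromosome 13, 8 on chromosome 3, 2 on chromosome 11 and 1 on chromosome 6. The annotated transcripts of 30 of the 39 hold the histone stem-loop pattern after the coding region on the sense strand. The pattern is GG, then 3 bases that are C or T, then T, a loop of any 4 bases, A, 3 bases that are A or G, and CC. Of the other 9, 5 have an annotated 3′ UTR of under 40 bases. The pattern occurred anywhere in the longest coding transcript of 2.33% of 21834 other protein-coding genes. It is shown for the 4 abundant or called members that carry it, Hist1h4i, Hist1h1c, Hist3h2a and Hist1h3g, and for Hist4h4, Hist1h4c, Hist1h3e and Hist1h2bg, which had means under 100 scaled reads and were not called. The annotated transcripts of the abundant Hist2h2be and Hist1h2bc hold no match. The 16 bases of stem and loop are in capitals, and all lie in the annotated 3′ UTR.
Hist1h4i, chr13:22040961-22040986, minus strand: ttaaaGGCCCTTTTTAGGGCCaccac
Hist1h1c, chr13:23739507-23739532, plus strand: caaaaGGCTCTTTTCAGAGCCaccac
Hist3h2a, chr11:58955167-58955192, plus strand: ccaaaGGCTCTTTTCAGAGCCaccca
Hist1h3g, chr13:23535884-23535909, plus strand: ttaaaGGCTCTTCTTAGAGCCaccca
Hist4h4, chr6:136803993-136804018, minus strand: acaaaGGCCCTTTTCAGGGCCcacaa
Hist1h4c, chr13:23698084-23698109, minus strand: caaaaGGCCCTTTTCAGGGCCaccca
Hist1h3e, chr13:23561898-23561923, minus strand: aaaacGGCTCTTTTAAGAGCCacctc
Hist1h2bg, chr13:23571838-23571863, plus strand: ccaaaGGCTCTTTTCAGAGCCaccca

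The first bases of the stem went with the histone type. All 9 H4 genes began with GGCCC or, in Hist1h4b, GGTCC, whereas all 21 stem-loops of the other types began with GGCTC. The most frequent core, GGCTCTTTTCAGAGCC, was found in 13 genes of the H1, H2A, H2B and H3 types. The core of Hist1h3g was found in no other member.

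A poly(A) signal is the other sequence that could place a member in polyA RNA, so the last 50 bases of each annotated transcript were searched for AATAAA or ATTAAA on the sense strand. It was found in 11 members, and in 72.3% of the 21834 other protein-coding genes. Of the 5 members with a mean of at least 100 scaled reads, 4 had one, against 6 of the 30 tested members below that level. The remaining member with a signal was Hist1h1t, which was not tested. A match is a description of the letters and not a shown site of polyadenylation. The signals of the 4 abundant members and of 2 low ones read as follows, with the 6 bases of the signal in capitals.
Hist1h4i, chr13:22040636-22040661, minus strand: tttacATTAAAagtattctatgctaa
Hist2h2be, chr3:96223712-96223737, plus strand: ttattAATAAAgttaccgattagttt
Hist1h1c, chr13:23740337-23740362, plus strand: cttctAATAAAaagcgtttagttttc
Hist3h2a, chr11:58956792-58956817, plus strand: tgcccAATAAAataagagtacgtgta
Hist1h4a, chr13:23760700-23760725, minus strand: gagtaAATAAAccttgagtgcctttg
Hist4h4, chr6:136801553-136801578, minus strand: gatgctagaggagatgaAATAAAtac

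The libraries held 72717465 to 94314770 reads in listed genes, as recovered from the scaled values. Spp1 had 2, 2 and 4 reads in the knockout libraries, against 143, 175 and 178 reads in the control libraries (log2 change -5.41 ± 0.25 SE, limma adjusted p = 8.98e-11). All 7 melanocyte lineage markers examined were tested, and 4 were higher and 1 lower in knockout cells. Dct, a melanin synthesis enzyme gene, changed by 0.35, Tyrp1 by 0.28 and Tyr, the tyrosinase gene, by -0.55 on the log2 scale. Of the markers of other cell types, Csf1r was the only 1 of 5 leukocyte genes in the table, no epithelial marker was in it, and Pecam1 and Pdgfra were the only endothelial and fibroblast markers in it. Pdgfra averaged 136 ± 10.7 scaled reads in knockout cells and 223 ± 14.1 in control cells (SD, n = 3 each), a log2 change of -0.71 that passed the test (limma adjusted p = 2.39e-05). Levels are given as scaled reads, that is reads divided by the library's DESeq size factor, and changes are differences of log2(scaled reads + 1), knockout minus control.

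Few clustered histone genes passed the test. Of the 35 tested, 3 were higher in knockout cells (Hist1h4i, Hist2h2be and Hist1h3g), 1 was lower (Hist1h1c) and 31 did not pass, at a limma adjusted p under 0.05 over all tested genes. That is 11.4% of the members, beside 63.0% of all tested genes (34.4% higher and 28.6% lower). With edgeR on the recovered reads of 5 libraries 2 members were called, Hist1h4i and Hist2h2be, beside 57.8% of all tested genes. The members' median log2 change was 0.17, beside 0.03 over all tested genes, and 27 of the 35 had a change above 0. The median SE of the members' changes was 0.36, against 0.05 over all tested genes. Changes of the 31 members that did not pass ran from -0.21 to 0.65. The count of higher members moved most with 1 control library. Without control 2 it was 7, the added genes being Hist1h1e, Hist1h2be, Hist1h2bj and Hist1h4d. The count of lower members was 0 without knockout 2 or without control 1, and 2 without knockout 1.

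**Figure D1:**
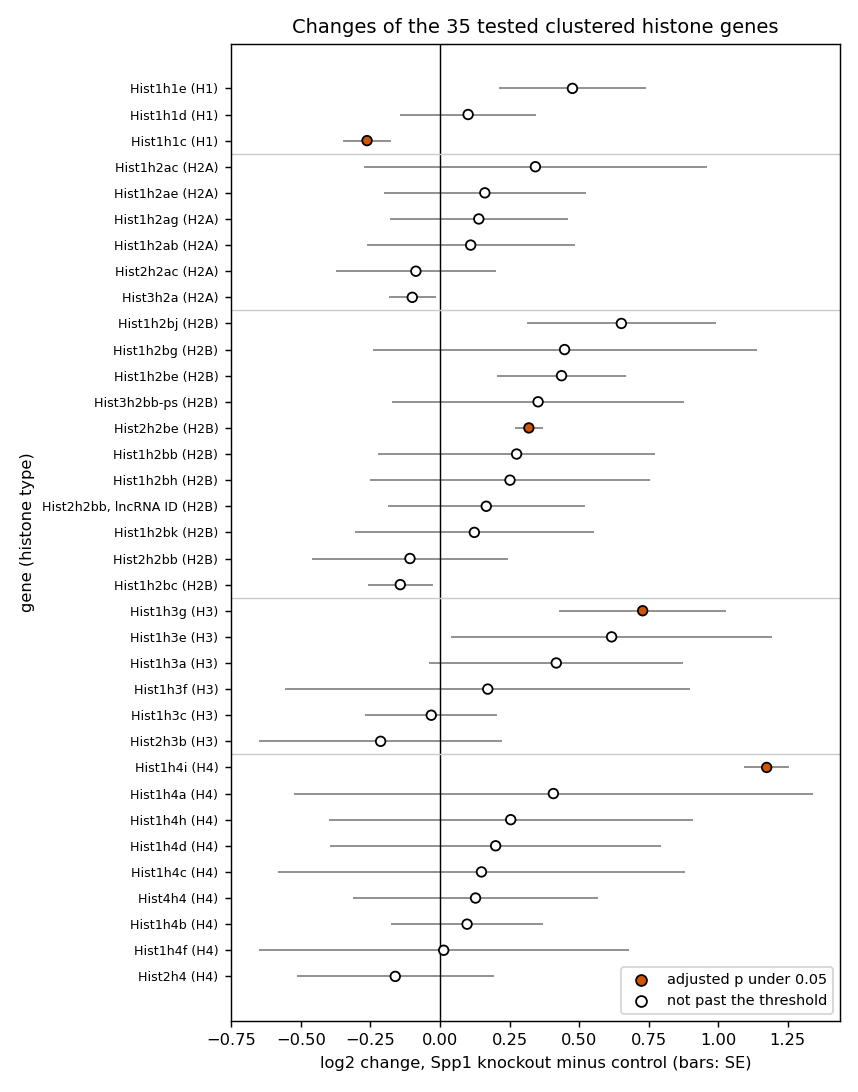
Log2 change, Spp1 knockout minus control, of the 35 tested clustered histone genes, grouped by histone type, with bars for the SE (3 libraries per group). The 4 filled points passed an adjusted p under 0.05, with Hist1h4i farthest to the right at 1.17.

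Among the H4 genes, Hist1h4i, one of the copies that encode the nucleosome core histone H4, had the largest change of any tested member. It had 590.0, 614 and 556 scaled reads in the 3 knockout libraries, against 236, 273 and 271 in the 3 control libraries. All knockout libraries lay above all control libraries, and the mean was 2.26 times that of the control. The log2 change was 1.17 ± 0.08 (SE, limma adjusted p = 5.91e-09), and the gene was called under all 19 alternative settings run. Hist1h4i lies on mm10 at chr13:22040636-22041362 on the minus strand, beside Hist1h2ag, Hist1h2bj and Hist1h2bk. Those 3 neighbours had log2 changes of 0.14 ± 0.32, 0.65 ± 0.34 and 0.12 ± 0.43 (SE), and none passed. The median change of the surrounding genes, 25 on each side that are not clustered histone genes, was 0.004. Of its 50-base words, 28.9% also occur in another gene, and how many of its reads fall there is not known.

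The other 8 H4 genes had means under 100 scaled reads and none passed the test, with log2 changes from -0.16 (Hist2h4) to 0.41 (Hist1h4a). They varied widely within each group. Hist1h4c, named with Hist1h3e and Hist1h2bg after its values were seen, had 118, 38.6 and 67.3 scaled reads in knockout libraries 1 to 3, against 31.3, 137 and 52.1 in control libraries 1 to 3. The lowest and the highest of its 6 values were both in control libraries, so the knockout values lay within the range of the control values. In recovered reads, this was 30 in control 1 and 153 in control 2, and the exact 95% Poisson intervals on the scaled values, 21.1 to 44.7 and 116 to 160.3, do not overlap. These intervals cover counting error only.

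Among the H2B genes, Hist2h2be, which in mouse is known as an H2B variant of olfactory sensory neurons, was the most abundant member and was higher in knockout cells. It had 1058, 1112 and 1075 scaled reads in the knockout libraries, against 839.7, 879.8 and 879.6 in the control libraries. The groups did not overlap, and the log2 change was 0.32 ± 0.05 (SE, limma adjusted p = 5.59e-05). Of the 19 alternative settings, it lost the call only in limma's test against a change of 1.2-fold (adjusted p = 0.413). The gene lies at chr3:96221119-96223738 on the plus strand, where the median change of the neighbouring genes was -0.42. None of its 50-base words occurs in another gene.

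Hist1h2bc, the second abundant H2B gene, had 392.3, 297.8 and 265.5 scaled reads in the knockout libraries, against 355.1, 335.3 and 350.7 in the control libraries. Its knockout values spread on both sides of the control values, and the change of -0.14 ± 0.12 (SE) did not pass (limma adjusted p = 0.314). Without knockout 1 it was -0.30 and passed (limma adjusted p = 0.0143). The other 9 H2B genes, Hist1h2bg and the annotated pseudogene Hist3h2bb-ps among them, did not pass. Hist1h2bg had 75.3, 22.8 and 53.7 scaled reads in knockout libraries 1 to 3, against 18.8, 74.2 and 25.2 in control libraries 1 to 3. Its high values were in knockout 1 and control 2 and its low ones in knockout 2 and control 1. The symbol Hist2h2bb stands for 2 IDs in the table. One is the coding gene, whose whole exon is overlapped by other annotated genes, so its reads cannot be told from theirs. The other is annotated in M21 as the long non-coding RNA Gm42743, and 17% of its exon bases are overlapped.

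Among the H1 genes, which encode the linker histones that bind DNA between nucleosomes, Hist1h1c was the only member called lower in knockout cells. It had 534.5, 422.4 and 452.9 scaled reads in the knockout libraries, against 585.9, 522.2 and 576.9 in the control libraries. Knockout 1 lay above control 2, so the groups overlapped. The log2 change was -0.26 ± 0.09 (SE, limma adjusted p = 0.0144). The call was made under 12 of 19 alternative settings. It was lost with edgeR (adjusted p = 0.0529) and DESeq2 (adjusted p = 0.0924) on recovered reads, which leave out knockout 2, and also in limma without knockout 2 (-0.19, adjusted p = 0.0826). Less the median of its neighbours (-0.10), the change was -0.16 and did not pass (limma adjusted p = 0.127). Hist1h1d and Hist1h1e had changes of 0.10 ± 0.25 and 0.48 ± 0.26 (SE) and did not pass. Hist1h1t, the testis H1 gene, was not tested. It had 2.09, 2.97 and 0.976 scaled reads in the knockout libraries, against 8.36, 9.84 and 6.51 in the control libraries. Its groups did not overlap, at a level of a few reads. With no filter on low values it was called lower.

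Among the H2A genes, Hist3h2a was the only abundant one and it did not pass. It had 270.9, 282 and 265 scaled reads in the knockout libraries, against 274, 298 and 305 in the control libraries. Knockout 2 lay above control 1, and the change was -0.10 ± 0.08 (SE, limma adjusted p = 0.321). The neighbouring genes on chromosome 11 had a median change of 0.12, and less that median the change was -0.22 and passed (limma adjusted p = 0.0359). Its exons overlap those of Gm44313 and Trim17 in part. The other 5 tested H2A genes had changes from -0.09 (Hist2h2ac) to 0.34 (Hist1h2ac), and none passed.

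Among the H3 genes, Hist1h3g was called higher at a low level. It had 16.7, 15.8 and 14.6 scaled reads in the knockout libraries, against 7.31, 12.5 and 8.14 in the control libraries. The groups did not overlap, and the log2 change was 0.73 ± 0.30 (SE, limma adjusted p = 0.0458). Hist1h3g met the filter of 10 scaled reads through its knockout libraries, where it was higher, since control 2 alone of the controls reached that level. The call was kept under 6 of 19 alternative settings, and 1 of the others left the gene out for its low level. In another gene 54.1% of its 50-base words occur. Hist1h3e had 108, 43.5 and 66.4 scaled reads in knockout libraries 1 to 3, against 21.9, 82.3 and 46.4 in control libraries 1 to 3. Its change of 0.62 ± 0.58 (SE) did not pass (limma adjusted p = 0.404). The groups of Hist1h3e overlapped over most of their range. The other 4 tested H3 genes did not pass either.

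Beside the 3 tested members with no overlap between groups and Hist1h1t, 67.1% of all tested genes had groups that did not overlap.

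**Figure D2:**
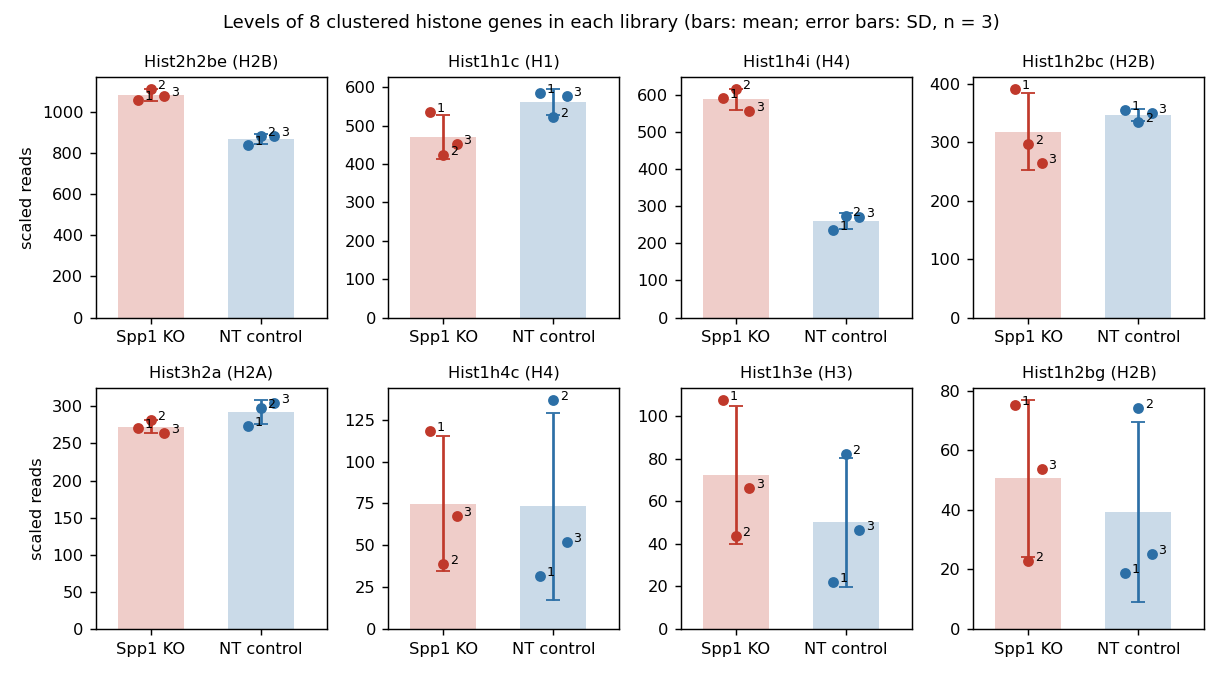
Scaled reads of 8 clustered histone genes in each library. Points are libraries with their replicate numbers, bars the means and error bars the SD (n = 3), Spp1 knockout left of control. Hist2h2be, Hist1h4i and Hist3h2a have close replicates, Hist1h1c and Hist1h2bc spread more in knockout cells, and Hist1h4c, Hist1h3e and Hist1h2bg are low in knockout 2 and control 1.

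Most members were low and variable, and 5 were abundant and less so. The 5 members with a mean of at least 100 scaled reads, Hist2h2be, Hist1h1c, Hist1h4i, Hist1h2bc and Hist3h2a, held 26.1%, 13.8%, 11.4%, 8.92% and 7.57% of all clustered histone reads. Per kilobase of annotated exon their order was Hist1h4i (582 scaled reads), Hist2h2be (372), Hist1h1c (331), Hist1h2bc (288) and Hist3h2a (132), beside a median of 44.1 over the annotated members. Within-group SDs of their log2 levels were 0.038 to 0.206. The 30 other tested members had SDs of 0.271 to 1.197. In all, 23 of the 35 tested members (65.7%) had an SD of at least 0.5, as did 2.93% of all tested genes. The variance of the recovered reads was a median 6.26 times counting error in the members and 2.38 times over all tested genes. It was 33.3 times counting error in Hist1h4c and 24.1 times in Hist1h4d. Among the abundant members it was 6.88 times in Hist1h2bc, 4.66 in Hist1h1c, 1.57 in Hist1h4i, 0.667 in Hist2h2be and 0.625 in Hist3h2a. It was below counting error also in 5 low members, Hist1h3g among them (0.488).

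**Figure D3:**
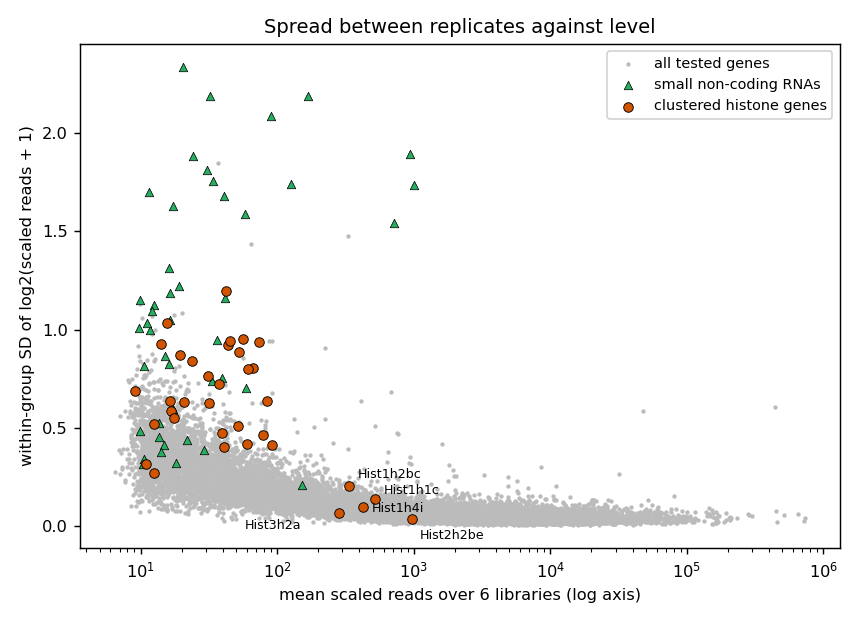
Within-group SD of log2(scaled reads + 1) against the mean level over 6 libraries (log axis) for all tested genes, small non-coding RNAs and clustered histone genes. The histone genes under 100 scaled reads lie at SDs of 0.271 to 1.197, in the range of the small RNAs, and the 5 abundant ones at 0.038 to 0.206.

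The variable members were high and low in the same libraries. Of the 40 listed members, 18 had their highest value in control 2 and 13 in knockout 1, and 19 had their lowest in control 1 and 10 in knockout 2. Among the 30 tested members under 100 scaled reads, control 2 was a median 2.63 times control 1 (range 1.11 to 4.71), and knockout 1 a median 2.06 times knockout 2 (range 0.732 to 5.92). Among the 5 abundant members these ratios were 0.891 to 1.16 and 0.951 to 1.32. Over all tested genes the medians were 0.994 and 0.990. Both ratios were at least 2 in 14 tested members, out of 44 such genes among all tested (0.287%).

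The other genes of this kind were mostly small RNAs of classes that normally carry no poly(A) tail. Of the 44, 25 were among the 45 tested genes that M21 annotates as snoRNA (17), misc_RNA (12), snRNA (11), scaRNA (3) or ribozyme (2), a list chosen after the values were seen, and 5 were neither histone nor small RNA genes. Rn7sk, the 7SK RNA that holds the elongation factor P-TEFb, had 1606, 195 and 904 scaled reads in knockout libraries 1 to 3, against 170.2, 2315 and 807 in control libraries 1 to 3. Rmrp, the RNA of RNase MRP, had 1811, 214 and 1110.0 scaled reads in knockout libraries 1 to 3, against 98.2, 1913 and 516 in control libraries 1 to 3. Both were lowest in knockout 2 and control 1. The mean log2 level of the 45 small RNAs was 5.29, 3.77 and 5.10 in knockout libraries 1 to 3, and 3.38, 5.68 and 4.40 in control libraries 1 to 3. Neither RNA differed between groups beyond this spread (limma adjusted p = 0.977 for Rn7sk and 0.719 for Rmrp).

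**Figure D4:**
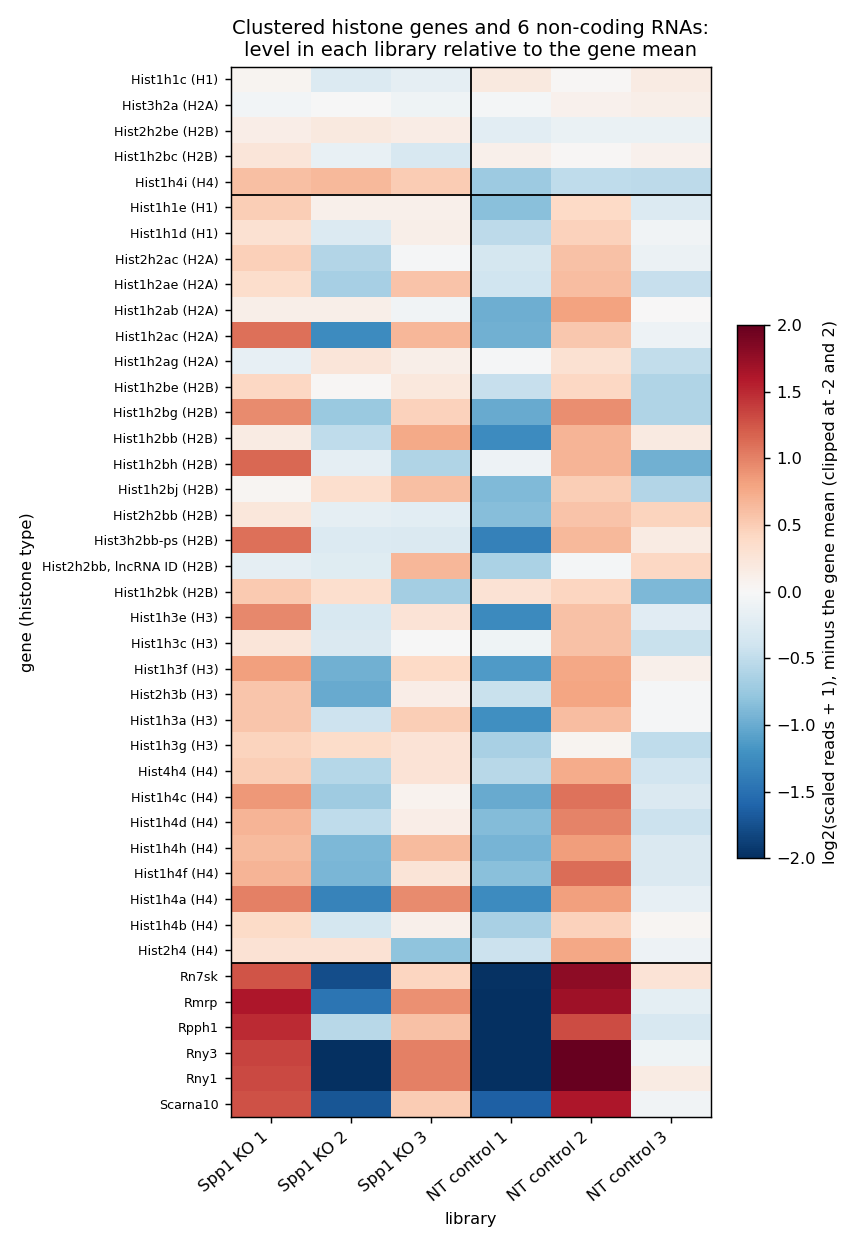
Level of the 35 tested clustered histone genes and 6 small non-coding RNAs in each library, as log2(scaled reads + 1) minus the gene's mean, with knockout libraries left of control libraries. The 5 genes with a mean of at least 100 form the top block, the 30 others the middle block and the small RNAs the bottom block. In the lower blocks knockout 1 and control 2 are mostly high, knockout 2 and control 1 mostly low.

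With that mean small RNA level as a term of the fit, an alternative added after the data were seen, the members' median residual SD was 0.261, against 0.633 without the term. Over all tested genes it was 0.0662 with the term and 0.0682 without it. The SD was at most 0.5 times as large in 16 of 35 members, and in 3.88% of all tested genes. The calls with the term were Hist1h4i (1.17), Hist2h2be (0.32) and Hist1h1c (-0.26), whereas Hist1h3g did not pass (limma adjusted p = 0.0630). That is 3 of 35 members, beside 63.1% of all tested genes. Of the 35 changes, 21 were above 0 with the term and the median was 0.05. The part of carried-over RNA without a poly(A) tail in these levels was not tested.

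Summed by type, the groups differed by less than the SD of either group for H2A and H3, and by less than the knockout SD for H1. The H2A genes summed to 405 ± 31.7 scaled reads in knockout cells and 419 ± 55.1 in control cells (SD, n = 3 each). The H3 genes summed to 278 ± 104 in knockout cells and 245 ± 121 in control cells. The H1 genes summed to 603 ± 79.8 in knockout cells and 677 ± 12.3 in control cells, most of it Hist1h1c. Knockout 1, at 692.5, lay above all control sums of H1. The H2B genes summed to 1675 ± 101 in knockout cells and 1438 ± 112 in control cells, most of it Hist2h2be. The H4 genes summed to 1035 ± 168 in knockout cells and 682 ± 280 in control cells, and the groups overlapped, with control 2 at 995.2 and knockout 2 at 870.5. Without Hist1h4i the H4 sums were 448 ± 181 in knockout cells and 422 ± 265 in control cells, so the difference in the H4 total was almost wholly that of 1 gene. No test was made on these sums, since they add up members.

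**Figure D5:**
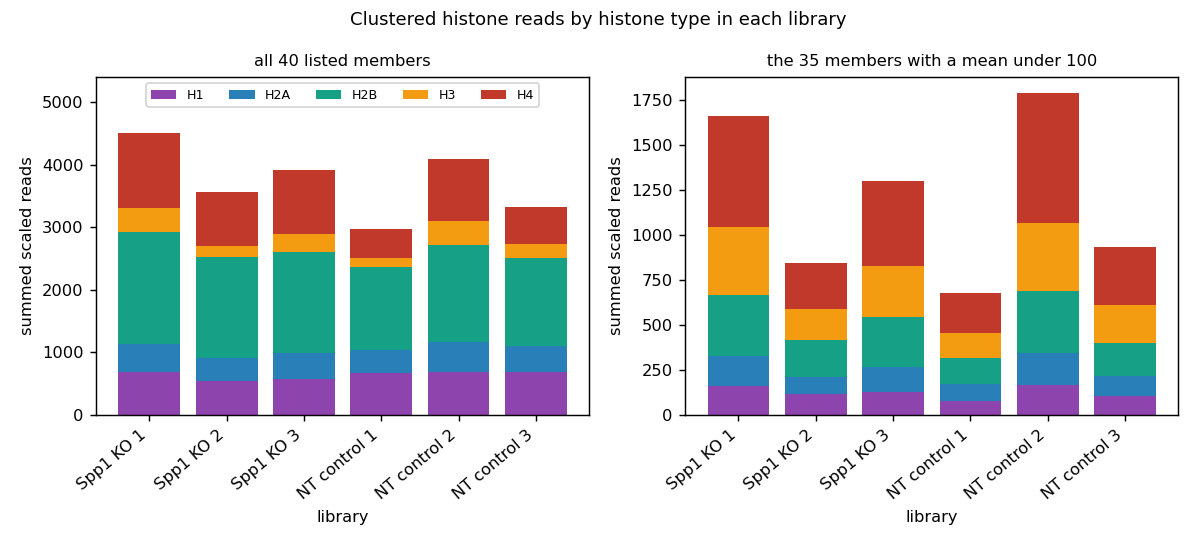
Summed scaled reads of the clustered histone genes by type in each library, for all 40 listed members and for the 35 with a mean under 100, with knockout libraries left of control libraries. The 35 low members sum to 1661, 843 and 1298 in knockout libraries 1 to 3, and to 679, 1788 and 934 in control libraries 1 to 3.

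The total over all 40 members was 4506, 3571 and 3912 scaled reads in knockout libraries 1 to 3, against 2969, 4096 and 3317 in control libraries 1 to 3. The 2 groups overlapped. The 35 low members alone ranged more widely, and their lowest and highest sums were both in control libraries. Mitochondrially encoded genes took 2.90%, 2.75% and 2.87% of reads in knockout libraries 1 to 3, and 2.83%, 2.90% and 3.04% in control libraries 1 to 3, and their part in the order of the libraries was not tested.

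The annotated 3′ end went with the level to a limited extent, and with the spread mainly through the abundant members. The 10 tested members with a poly(A) signal near the end had a median within-group SD of 0.521, from 0.038 to 1.197. The 4 abundant ones among them had SDs of 0.038 to 0.139, and the 6 low ones 0.414 to 1.197. The 19 tested members with a stem-loop and no such signal had a median of 0.686. The 6 with neither, or with no annotation, had a median of 0.653. The part of level in these medians was not tested. Of the first class 3 were called, of the second 1 (Hist1h3g) and of the third none, where no member had an unadjusted limma p under 0.05 and edgeR called none. Hist1h4a and Hist4h4, whose signals are printed above, were as variable as members without one. Of the 30 stem-loops, 12 stood within 100 bases of the annotated transcript end and 18 were followed by a longer annotated stretch. Reads were not available by position here, so which end was used in these cells was not tested.

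Near-identical copies and overlapping genes limit what can be read from single members. Of the annotated members, 28 share more than 20% of their 50-base words with another gene, with a median of 43.2%. These shares count genes that overlap at the same place as well as copies elsewhere. Hist2h3b, for example, is at 100% and is wholly overlapped by Gm20628. How the authors counted reads that fit several genes is not given.

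Genes outside the clusters that encode replication-independent histones were steady and mostly passed the test. Of 9 tested, 3 rose and 5 fell. H2afj, an H2A variant, averaged 8867 ± 421 scaled reads in knockout cells and 4992 ± 596 in control cells (SD, n = 3 each; log2 change 0.83 ± 0.08 SE). H2afx, the variant phosphorylated at DNA breaks, rose by 0.18 ± 0.04 (SE). H1f0, the linker histone of differentiated cells, changed by -0.37 ± 0.08 among neighbours with a median of -0.31, and H2afv, an H2A.Z variant, by -0.35 ± 0.06 among neighbours with a median of 0.16 (SE). Less the neighbours' median, 2 of the 9 were higher and 3 lower. H1f0 was then at -0.06 and did not pass (limma adjusted p = 0.596), and H2afv was at -0.51 and passed. These and all genes named in the next paragraphs had limma adjusted p under 0.05 unless stated.

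Most genes of the machinery that makes the stem-loop 3′ end rose. Of 14 tested genes 11 rose, none fell and 3 did not pass. At an unadjusted limma p under 0.05 the count of lower genes was also 0, as it was with edgeR and DESeq2. Less the neighbours' median 7 were higher and 1 was lower, Ncbp2 at -0.13. Lsm11, a U7-specific protein, rose by 0.50 ± 0.05, and Srrt, an adaptor of the cap-binding complex, by 0.35 ± 0.05 (SE). Slbp averaged 9002 ± 234 scaled reads in knockout cells and 8359 ± 77.1 in control cells (log2 change 0.11 ± 0.03 SE, limma adjusted p = 0.00838). The list's median change was 0.20, beside 0.03 over all tested genes. Less its neighbours' median Slbp did not pass (0.07, limma adjusted p = 0.0647).

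Genes of histone mRNA decay and of the nuclear exosome moved both ways. Of 7 decay genes 4 rose and 1 fell. Upf1, the helicase of RNA decay, rose by 0.32 ± 0.04, and Eri1, the exonuclease that trims the stem-loop, by 0.29 ± 0.03, whereas Zcchc6, a uridylyltransferase, changed by -0.30 ± 0.04 (SE) among neighbours with a median of -0.27. With the neighbours' median taken off, 3 were higher and 2 lower. Zcchc6 then did not pass (-0.03, limma adjusted p = 0.610), and the lower genes were Lsm1 (-0.11) and Exosc10 (-0.13). Of 15 tested exosome genes 8 rose and 5 fell, with Papd5, a poly(A) polymerase that tags nuclear RNA, at 0.44 and the nuclease gene Dis3 at 0.29, and with Zfc3h1 at -0.35 and Exosc8 at -0.22. Less the neighbours' median 7 were higher and 2 lower. Zfc3h1 and Exosc8 were then called higher (0.17 and 0.10), and the lower genes were Exosc10 (-0.13) and Rbm7 (-0.13). Of 15 genes of canonical cleavage and polyadenylation 10 rose and 1 fell. Clp1 rose by 0.69 ± 0.05 and Cpsf7 by 0.43 ± 0.04, while Cstf3 changed by -0.13 ± 0.03 (SE).

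Npat, the coactivator of clustered histone gene transcription, averaged 5360 ± 197 scaled reads in knockout cells and 5200 ± 106 in control cells, and did not pass (log2 change 0.04 ± 0.04 SE, limma adjusted p = 0.321). Of the 11 genes of histone gene transcription 7 rose and 2 fell. Ccne1, the cyclin E1 gene, rose by 0.49 ± 0.03 and Nfya by 0.41 ± 0.04. Nfyb, which encodes another subunit of the same CCAAT-binding factor, changed by -0.52 ± 0.04, and Cdk2, the partner of cyclin E, by -0.28 ± 0.03 (SE). The neighbours of Nfyb and Cdk2 had medians of -0.59 and -0.72. Less the neighbours' median 7 of the 11 were higher and 0 lower, with Nfyb not passing (0.07) and Cdk2 called higher (0.44). Of 23 histone chaperones and deposition factors 16 rose and 5 fell. Chaf1b, a subunit of the chromatin assembly factor CAF-1, was at 0.44 and the histone importin Ipo4 at 0.42. Asf1a, a chaperone of H3 and H4, was at -0.83, and Anp32e, a chaperone of H2A.Z, at -0.72, and both were still called lower less their neighbours' medians (-0.24 and -0.29). With that median taken off, 15 of the 23 were higher and 2 lower.

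Of 42 genes of S phase and DNA replication 33 rose, 3 fell and 6 did not pass, with a median change of 0.19. Cdt1, a licensing factor of replication origins, rose by 0.66 ± 0.04, whereas Prim1, the primase subunit gene, changed by -0.36 ± 0.03 and Tipin by -0.32 ± 0.03 (SE). Less the neighbours' median 26 were higher and 5 lower. Prim1 was then called higher (0.30) and Tipin did not pass (0.02), and the lower genes were Rfc4 (-0.25), Gins2 (-0.17), Gins3 (-0.15), Tk1 (-0.12) and Rpa2 (-0.10). With the median left in, Rpa2 was called higher (0.09) and the other lower genes did not pass. The median within-group SD of these 42 genes was 0.036, beside 0.633 for the clustered histone genes in the same libraries. The levels were unlike, since all 42 were more abundant than any clustered histone gene, and counting error weighs more on low genes. Hist2h2be, the most abundant clustered histone gene with a mean of 974 scaled reads, had an SD of 0.038. The part of level in the difference of SDs was not tested. Each of these lists stands beside a background in which 34.4% of all tested genes rose and 28.6% fell. Less the neighbours' median, 4549 of 15235 genes were higher and 4240 lower. In limma's test against a change of 1.2-fold the counts were smaller throughout, with 8 higher and 1 lower of the S phase genes, 3 and 2 of the chaperones, 3 and 1 of the transcription genes, 3 and 0 of the cleavage genes, and 1 and 0 of the 3′ end processing genes, of the exosome genes and of the replication-independent histones. None of the decay genes passed it. Of all 15307 tested genes, 1581 were higher and 2168 lower in that test.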

How the data were processed

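Deposited values are signal values: per the series' design text, the authors divided reads per gene by DESeq size factors. The submitters' processing notes list cutadapt 1.6, STAR 2.5.0a, HTSeq 0.5.3, DESeq and mm10. The sources used here give no annotation release, no strand setting and no treatment of reads that match several genes, so overlapping and antisense genes cannot be told apart.

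Samples were grouped by title. The 15307 genes that reached 10 in 3 or more of the 6 libraries were tested on log2(value + 1), which understates changes of low genes. The test was limma 3.58.1 in R 4.3.3, two-sided, with a trended and robust variance estimate. Benjamini-Hochberg adjustment ran over all tested genes with a threshold of 0.05. A permutation of 3 against 3 libraries gives no exact p under 0.1 and was not run. The fit was tested on simulated data with the same small spread set for every gene, so that test does not cover genes as variable as most members.

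All values of a column (100%, within 0.001) were whole multiples of its smallest value, which was taken as 1 read. For knockout 2 that value, 0.989, is close to 1 and was not accepted as recovered. EdgeR 4.0.16 and DESeq2 1.42.0 therefore used the reads of the other 5 libraries and called 8849 and 8123 genes. Reads stated for knockout 2, its library total and the ratios of variance to counting error still rest on that value. Poisson intervals cover counting error only. Replicates differed by more than counting noise (ratio of chi-square to degrees of freedom 5.89 to 16.8) and none was merged.

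Transcript ends, exon lengths, overlaps, 50-base words, biotypes and sequences came from GENCODE M21 transcripts on mm10. Neighbours are the nearest 25 tested genes on each side that are not clustered histone genes. Their median was taken off the knockout values as a fixed number, so adjusted p-values less that median leave out its own uncertainty. Alternatives were the pseudocount, the filter, the scaling, the variance estimate, the tool, a replicate block, leaving out each library, a 1.2-fold minimum, the neighbours' median and the small RNA term.

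Values in every library are given for members with a mean of at least 100 and for called members with a log2 change of at least 1. In each gene list up to 2 higher and 2 lower called genes with the largest change are named, and Slbp and Npat always. Hist1h3g, Hist1h1t, Hist1h4c, Hist1h3e, Hist1h2bg, the small RNAs and the genes called lower only less the neighbours' median were named after their values were seen. Members and lists were chosen with earlier results of these data known.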

Additional observations from a re-analysis of the deposited data

How the results depend on the processing

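The main counts were 3 members higher, 1 member lower and 9640 genes called in all. Against a change of 1.2-fold these were 1, 0 and 3749. Leaving out 1 library gave 2 to 7 members higher and 0 to 2 lower, with 7 higher only without control 2, and 2 lower only without knockout 1. Without a filter on low values 2 members were lower, and 0 were lower without trended and robust variance, with edgeR and with DESeq2, where the cause was not tested. Hist1h4i kept its direction and call under all 19 alternatives. Hist1h1c kept its direction throughout (-0.26 to -0.16 among the alternatives that lost the call), and no change among the 6 abundant or called members reversed. Equal totals turned the split of all calls to 4476 higher and 5030 lower and edgeR to 4280 and 4569, against 5266 and 4374. Under equal totals 26 of 35 members were above 0.

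The deviations of same-numbered libraries correlated at -0.107, -0.244 and -0.038, and those of differently numbered libraries at -0.12 to 0.214. With 3 libraries per group these values cannot show whether the replicate numbers pair the samples. With replicate number as a block 2 members were higher, 1 was lower and 9289 genes were called in all, with Hist1h3g at an adjusted p of 0.0611 in limma.

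Low depth and the spread between libraries both limit the 35 low members. In 5 of them, Hist1h1t, Hist1h2af, Hist1h2ag, Hist2h2ab and Hist1h3g, the variance of the reads was below that of counting error. In the other low members it was above, up to 33.3 times counting error in Hist1h4c. The number of libraries, 3 per group, and the cell line labels limit the rest.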
